A study of Mus musculus with 8 samples.

Results

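The genes described here are 10 components of bone morphogenetic protein (BMP) signalling: the ligands Bmp4, Bmp7 and Gdf6, the receptors Bmpr1a, Bmpr1b and Bmpr2, and the secreted or membrane antagonists and modulators Smoc1, Fst, Nog and Bambi. They were chosen by name, with earlier results of these data known. Every probe set whose annotated symbol is one of them was taken, whatever its values. Of the 10 genes, 9 had such a probe set, 21 probe sets in all among 45037. Gdf6 had none in the annotation used and was not analysed here. A filter on mean signal kept 18 of the 21 probe sets, which cover 8 of the 10 genes. Nog lay below it, as did 1 of 3 probe sets of Bmp7 and 1 of 6 of Bmpr1a. Of the 18, 2 passed only through the stage where their signal was highest (1422912_at of Bmp4 through E10.5, 1443720_s_at of Bmpr1b through E12.5), so their tests are given as values and support no count.

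The samples were optic fissure tissue cut by laser from frozen sections, and all embryos were wild-type mice of strain C57BL/6, with no mutant or treated group. The optic fissure is the cleft along the ventral side of the embryonic eye cup, whose edges meet and fuse around midgestation. Tissue was taken at embryonic day (E) 10.5 (3 arrays, A to C), E11.5 (3 arrays, A to C) and E12.5 (2 arrays, A and B), with the tissue of 3 embryos pooled on each array. One label places the pooled embryos in a single litter and another in separate litters. The arrays of a stage are called biological replicates in the labels, and with so few of them the p-values measure the spread between these pools.

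BMPs are secreted dimeric growth factors of the TGF-beta superfamily. They bind a complex of type I receptors (such as those encoded by Bmpr1a and Bmpr1b) and type II receptors (such as that of Bmpr2), which phosphorylates SMAD transcription factors. Noggin and follistatin bind ligands outside the cell and keep them from their receptors, and Bambi is a pseudoreceptor that lacks a kinase domain. In the early eye, BMP4 made dorsally and BMP antagonists made ventrally set the dorsal side of the optic cup apart from the ventral, and loss of Bmp7 or Smoc1 in mice disturbs the fissure.

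Follistatin RNA fell steeply through the period of fissure closure, by 2.87 and 3.33 on the log2 scale between E10.5 and E12.5 at its 2 probe sets. The receptor gene Bmpr1b rose by 2.0 at 1 of its 3 probe sets, 1437312_at, and Smoc1 rose by 1.15. Bmp4 was lower by 0.91 at E12.5 than at E10.5, at a signal so near the lower end of the measured range that the probe set passed the filter only through its E10.5 values. No member probe set passed the test between E10.5 and E11.5. Bmp7, Bmpr1a, Bmpr2 and Bambi passed it in no comparison. Because the tissue is bulk, fewer cells of a type and less RNA per cell cannot be told apart in any of these values.

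Values are the deposited log2 signals, so a difference of 1 is a doubling, and levels of different probe sets were not compared with each other. Stages were compared with limma in 1 model over the 8 arrays, with Benjamini-Hochberg adjustment over 27022 probe sets and a threshold of 0.05, and a change is called where its adjusted p is below that. From E10.5 to E11.5, 0 of 18 member probe sets were called higher and 0 lower, against 0.0962% and 0.0296% of all probe sets tested. At an unadjusted p under 0.05 there were 4 of 18, and 5254 of 27022 in all. From E11.5 to E12.5, 3 were called higher (1.62% of all) and 1 lower (0.200% of all). From E10.5 to E12.5, 3 were called higher (3.08% of all) and 3 lower (1.56% of all). The F test for any stage difference called 5 of the 18, against 2.92% of all: both Fst probe sets, 2 of Bmpr1b and that of Smoc1. E11.5 against the mean of the other stages gave 0 calls (0.241% of all) and 3 at an unadjusted p under 0.05, against 4487 of 27022 in all. Without the 2 probe sets that passed the filter only through 1 stage, 16 remained, of which 2 were called higher and 1 lower from E11.5 to E12.5, 2 higher and 2 lower from E10.5 to E12.5, and 4 by the F test. Several probe sets measure 1 gene, so these counts are not independent. The members were also chosen with earlier results of these data known, which limits the comparison with all probe sets.

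Arrays that did not overlap between stages were counted in the same way, with no test. From E10.5 to E11.5, 1 member probe set lay wholly higher (3.57% of all) and 4 wholly lower (19.3% of all). From E11.5 to E12.5 the counts were 9 higher (29.6% of all) and 4 lower (14.1% of all), and from E10.5 to E12.5 they were 6 higher (19.3% of all) and 4 lower (25.7% of all). The median change of the 18 was -0.27, 0.23 and 0.02 in these comparisons, and that of all probe sets was -0.18, 0.10 and -0.08. Quantile normalization of the arrays moved the median of all probe sets by 0.16 from E10.5 to E11.5 and by -0.14 from E11.5 to E12.5. With it the share of higher calls among all calls went from 76.5% to 91.3% in the first of these comparisons and from 89% to 67.5% in the second.

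**Figure D1:**
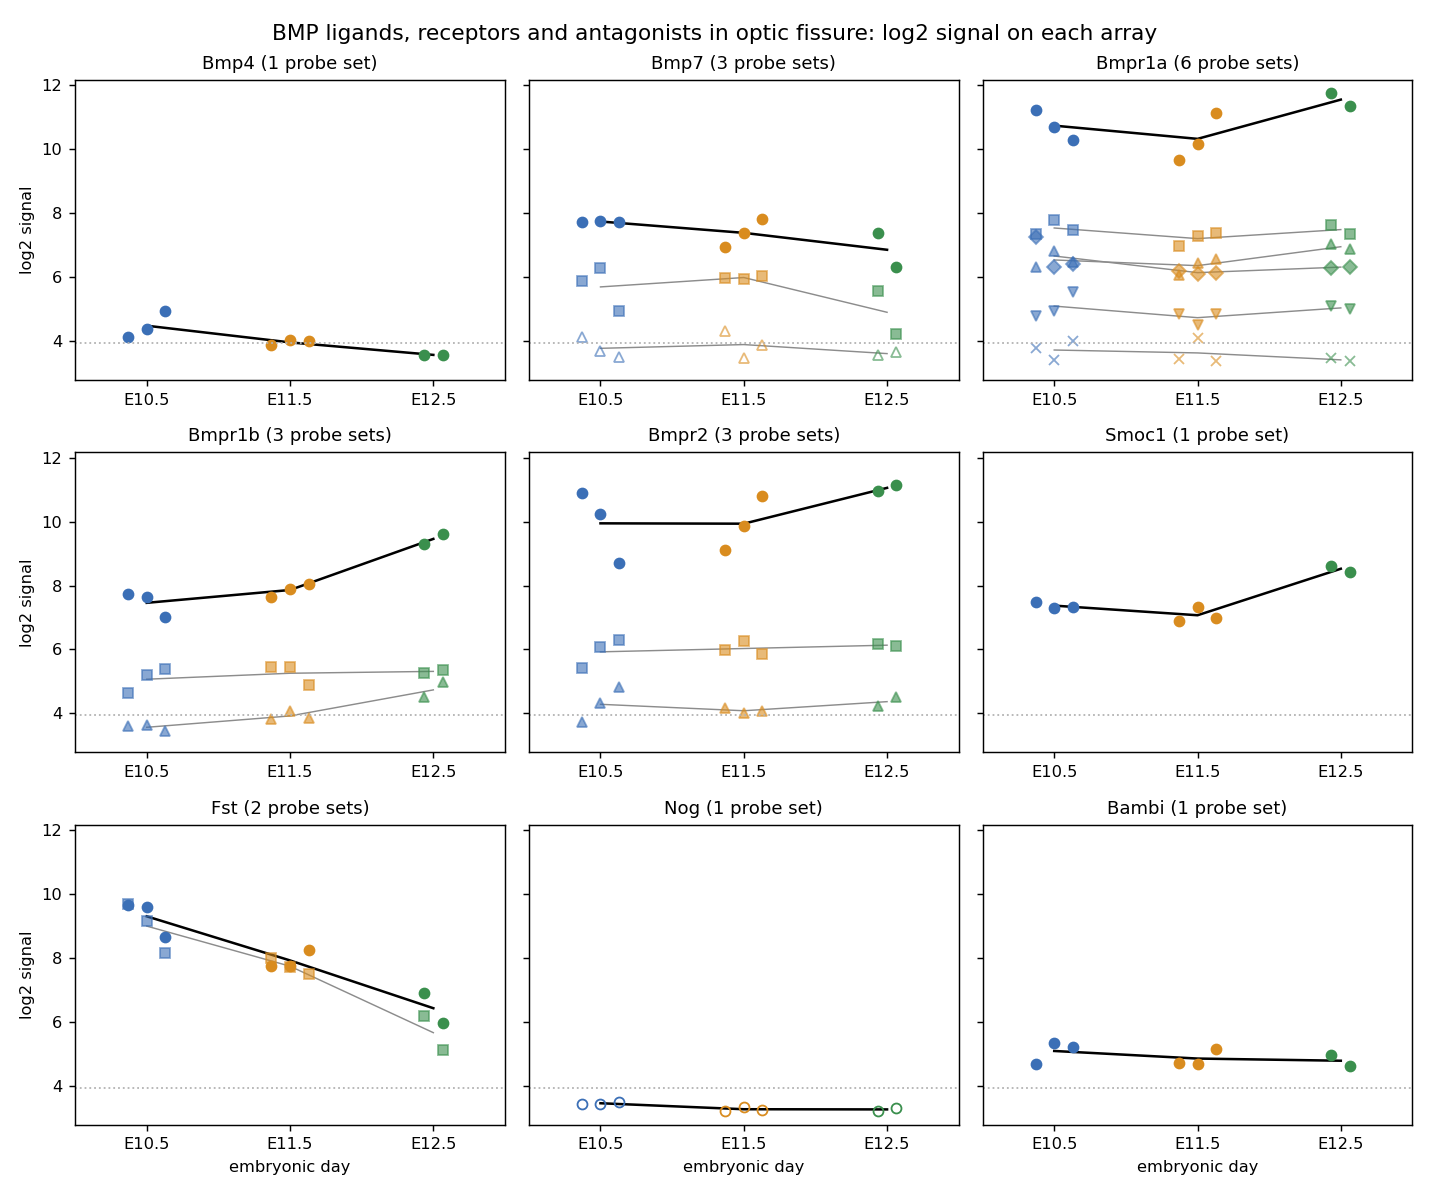
Deposited log2 signal (y axis) of each of the 9 measured genes on the 8 arrays, grouped by embryonic stage (x axis). Each symbol shape is a probe set, points are single arrays, lines join stage means, open symbols or crosses are probe sets below the filter, and the dotted line marks the filter at 3.94. Both Fst probe sets step down from stage to stage, and the uppermost Bmpr1b probe set stands at 9.30 and 9.62 at E12.5 with no other array above 8.06.

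The arrays themselves differed in ways that bear on these values. Array medians lay between 4.37 and 4.48, while the 99th percentile of signal was 12.5 to 12.9 at E10.5, 11.2 to 12.4 at E11.5 and 12.5 to 12.6 at E12.5. For Gapdh, control probe sets lie at both ends of the transcript, and their difference in log2 signal (3 prime minus 5 prime) is larger where the amplified RNA reaches less far toward the 5 prime end. It was 4.19 to 4.71 at E10.5, 3.35 to 4.63 at E11.5 and 4.78 to 5.17 at E12.5. Of 6 markers of the fissure and ventral optic cup listed, 5 had a probe set, and all 5 passed the filter. The log2 of their summed linear signal was 11.5 to 11.9 at E10.5, 10.7 to 11.3 at E11.5 and 10.5 to 11 at E12.5. Such a sum mostly follows its genes of highest signal, here Zfp503 at E10.5 (mean 10.9) and Vax2 at E12.5 (mean 9.84). The sums of the other lists were made in the same way. The sum of 12 retinal neuron markers was 7.73 to 7.78, 7.51 to 7.70 and then 12.2 on E12.5 array A and 14.1 on array B. Of these 12 genes, 8 were called higher from E11.5 to E12.5 and 10 from E10.5 to E12.5. Atoh7, Neurog2, Neurod1, Dcx, Stmn2, Tubb3 and Nefm had E10.5 and E11.5 means below the filter. They were tested only because E12.5 was high, so their calls support no count. The 11 periocular mesenchyme markers summed to 8.39 to 8.87 at E10.5, 9.88 to 10.8 at E11.5 and 9.88 to 10.6 at E12.5. Of them 3 were called higher at E11.5 than at E10.5. The 10 lens and surface ectoderm markers, 6 of them above the filter, summed to 8.46 to 8.74, 9.91 to 9.99 and 8.95 to 9.12, with 0 called. Pigment epithelium markers (10) summed to 11.3 to 12.9, 11.9 to 13.2 and 11.9 to 12.6. Of them 3 were called higher at E11.5 than at E10.5, and 5 were called higher and 1 lower at E12.5 than at E10.5. Of the 7 eye field and neural retina markers 1 was called higher at E12.5, and of the 5 red cell markers 1 was called lower. None of 6 endothelial markers (2 above the filter) and 6 macrophage markers (5 above it) was called, and the endothelial sum was 6.97 to 7.49, 6.93 to 7.18 and 7.80 to 7.85. Over all 13050 genes, 0.153% were called higher and 0.023% lower from E10.5 to E11.5. The shares were 1.79% and 0.238% from E11.5 to E12.5, and 3.49% and 1.78% from E10.5 to E12.5. The part of these cell types in the results was not tested.

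Bmp4, the ligand made in the dorsal optic cup, was measured by 1 probe set (1422912_at). Its log2 signal was 4.12, 4.37 and 4.94 on E10.5 arrays A to C, 3.86, 4.02 and 3.98 at E11.5, and 3.55 and 3.58 at E12.5. No array of a later stage reached the lowest array of an earlier one. The stage means were 4.48 ± 0.42 and 3.96 ± 0.08 (SD, n = 3 each) and then 3.57 ± 0.01 (SD, n = 2). The fall by 0.91 from E10.5 to E12.5 (SE 0.22, 95% confidence interval -1.39 to -0.44, limma adjusted p = 0.0375) is a 1.88-fold difference, and neither single step was called (adjusted p = 0.197 and 0.39). The probe set's mean lay at percentile 42.9 of all probe sets, just above the filter, where a log2 difference understates a change in RNA. Over the E11.5 and E12.5 arrays alone its mean was 3.80, below the filter at 3.94, and without E10.5 array C or with the filter at 60% it was not tested. The adjusted p was 0.0532, 0.0652 or 0.0526 without E11.5 array A, B or C, 0.184 and 0.322 without array A or B of E12.5, and 0.103 with the Gapdh measure as a covariate. It was also above the threshold with 64 added to the linear signal (0.0719), with no filter, so that the E10.5 values did not select it (0.0516), and with no trend in the variance (0.0763).

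Bmp7, a ligand needed for eye and kidney formation, had 2 probe sets above the filter, whose correlation over the 8 arrays was r = 0.63. At 1435479_at the arrays read 7.73, 7.74 and 7.73 at E10.5, 6.95, 7.37 and 7.83 at E11.5, and 7.38 and 6.33 at E12.5. The E10.5 arrays lay within 0.01 of each other and above both E12.5 arrays, while the E11.5 arrays spread from below to above them. The difference between E12.5 and E10.5 was -0.88 (limma adjusted p = 0.163). At 1418910_at the arrays read 5.87, 6.28 and 4.93, then 5.98, 5.93 and 6.05, then 5.57 and 4.22. Here the E11.5 arrays lay close together and above both E12.5 arrays, with a difference of -1.09 (SE 0.41, adjusted p = 0.223). E12.5 array B was the lowest of the 8 at both probe sets, and it was also the array with the highest sum of retinal neuron markers. The third probe set, 1432410_a_at, read 3.46 to 4.32 and was below the filter.

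The receptors split by gene and by probe set. Bmpr1b encodes a type I receptor known for its part in cartilage formation and, with Bmpr1a, in the retina. Its most strongly hybridizing probe set, 1437312_at, read 7.74, 7.63 and 7.0 at E10.5, 7.64, 7.88 and 8.06 at E11.5, and 9.30 and 9.62 at E12.5. E10.5 and E11.5 overlapped, and both E12.5 arrays stood more than 1 log2 unit above every earlier array. The means were 7.46 ± 0.40 (SD, n = 3), 7.86 ± 0.21 (SD, n = 3) and 9.46 ± 0.23 (SD, n = 2). From E11.5 to E12.5 the signal rose by 1.60 (SE 0.30, 3.03-fold, limma adjusted p = 0.0212), and over both steps by 2.0 (SE 0.30, 4-fold, adjusted p = 0.00371). The first step, 0.40, was not called (adjusted p = 0.422).

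A second Bmpr1b probe set, 1443720_s_at, had low signal, reading 3.6, 3.64 and 3.46, then 3.82, 4.09 and 3.86, then 4.5 and 4.97. No stage overlapped another. Its mean over the E10.5 and E11.5 arrays was 3.74, below the filter, so it was tested only because E12.5 was high, and it gives no second support to the rise. The difference was 0.81 between E12.5 and E11.5 (SE 0.18, limma adjusted p = 0.046) and 1.17 between E12.5 and E10.5 (SE 0.18, adjusted p = 0.00442). With no filter, so that the E12.5 values did not select it, these adjusted p were 0.062 and 0.00578. Its suffix marks probes that can match other transcripts too. The correlation of this probe set with the first over the 8 arrays was r = 0.95, and that of the third, 1422872_at, was r = 0.10. The third probe set read 4.64 to 5.45 over all arrays and changed by 0.06 from E11.5 to E12.5 (adjusted p = 0.944), so the probe sets of Bmpr1b disagree.

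The rise of Bmpr1b over the whole period held up better under the alternatives than that of the second step. From E10.5 to E12.5 the adjusted p of 1437312_at passed the threshold in all but 1 of 18 alternatives, the fit without E12.5 array B (0.0887). The other probe set, 1443720_s_at, was below the filter without either E12.5 array and with the filter at 60%, so its calls under the other alternatives carry the same selection. From E11.5 to E12.5 the adjusted p of 1437312_at was 0.0902 without E11.5 array A, 0.0951 without E11.5 B and 0.329 with the Gapdh covariate. Its call was also lost without either E12.5 array. With 1 array left out at a time, the change of 1437312_at in this step lay between 1.44 and 1.76. For 1443720_s_at in the second step the adjusted p was 0.0526 without E10.5 A, 0.0784 without E10.5 B, and 0.181, 0.0903 and 0.0627 without E11.5 A, B or C. It was 0.0581 under quantile normalization, 0.0542 under median centring, 0.11 with no trend, 0.372 with the covariate and 0.0898 with E10.5 C and E11.5 A both left out.

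Bmpr1a, the other type I receptor, had 5 probe sets above the filter and none was called. The first, 1425492_at, read 11.23, 10.69 and 10.29 at E10.5, 9.67, 10.17 and 11.13 at E11.5, and 11.74 and 11.36 at E12.5. Both E12.5 arrays were the highest, and the E11.5 arrays spread over 1.46 log2 units. The difference between E12.5 and E11.5 was 1.23 (SE 0.45, 95% confidence interval 0.25 to 2.21, limma adjusted p = 0.203). The other 4 kept probe sets changed by 0.17 to 0.59 in the same comparison, and their correlation with the first ranged from r = 0.09 to 0.77. From E10.5 to E12.5 the probe sets differed in direction. The changes were 0.81 at the first and 0.41 at 1425493_at, against -0.05 at 1425494_s_at, -0.35 at 1451729_at and -0.06 at 1425491_at.

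Bmpr2 encodes the type II receptor that pairs with both type I receptors. Its first probe set, 1434310_at, read 10.90, 10.24 and 8.70 at E10.5, 9.12, 9.87 and 10.81 at E11.5, and 10.96 and 11.15 at E12.5. The E10.5 arrays alone spanned 2.20 log2 units, almost the range of all 8 arrays. Its difference between E12.5 and E11.5 was 1.12 (SE 0.60, limma adjusted p = 0.372). The other probe sets, 1419616_at and 1441652_at, read 5.41 to 6.30 and 3.72 to 4.82, were not called, and each correlated with the first at r = -0.43 over the 8 arrays. Neither tracked the order of arrays seen at the first probe set.

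Within E10.5 and E11.5 the first probe sets of Bmpr1a, Bmpr1b and Bmpr2 followed the Gapdh measure array by array. At E10.5 each of these signals and the Gapdh difference (4.71, 4.51 and 4.19) fell in the order A, B, C, and at E11.5 (Gapdh 3.35, 3.94 and 4.63) each rose in that order. At E12.5 the Gapdh difference was higher on array A (5.17 and 4.78), as was Bmpr1a, while Bmpr1b and Bmpr2 were higher on array B. The same difference for Actb did not follow this order throughout: it was 6.96, 6.83 and 6.96 on E10.5 arrays A to C, 5.45, 6.42 and 6.61 at E11.5, and 6.88 and 7.21 at E12.5. The 99th percentile of signal rose in the order A, B, C at E11.5 (11.19, 11.83 and 12.38). At E10.5 it read 12.93, 12.55 and 12.88 on arrays A to C. Among all probe sets tested 14.7% had the order of the Gapdh difference in both earlier stages. Among the members 4 of 18 did, the fourth being 1434458_at of Fst. With the Gapdh measure as a covariate, the change of Bmpr1a from E11.5 to E12.5 was 0.00 in place of 1.23, and that of Bmpr2 was -0.46 in place of 1.12. The changes of Fst and of the first Bmpr1b probe set over the same step were -2.25 in place of -1.49 (1434458_at), -2.36 in place of -2.08 (1421365_at) and 1.21 in place of 1.60. The part of amplification in these values was not tested beyond that fit, in which stage and the Gapdh measure move together.

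The upstream windows of these 3 receptor genes differ in base composition, and they are shown as a description. Whether base composition or motifs bear on the array values or the calls of these genes was not tested. Each window is the 250 bases before the transcription start in RefSeq on GRCm38.p6, in the direction of the gene, 5′ to 3′. Capitals mark GGCGCC, a GC-rich motif that SMAD proteins are known to bind. It reads the same on both strands, so 1 search covers both. Of the 10 genes, 4 had an entry in the promoter table: Bmp4, Bmpr1a, Bmpr1b with 3 starts and Bmpr2.
Bmpr1a, chr14:34502547-34502796, minus strand: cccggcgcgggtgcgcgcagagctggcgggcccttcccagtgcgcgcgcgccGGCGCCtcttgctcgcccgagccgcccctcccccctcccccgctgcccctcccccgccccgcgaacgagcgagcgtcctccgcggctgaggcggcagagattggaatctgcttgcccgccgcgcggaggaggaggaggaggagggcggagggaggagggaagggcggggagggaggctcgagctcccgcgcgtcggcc
Bmpr2, chr1:59764029-59764278, plus strand: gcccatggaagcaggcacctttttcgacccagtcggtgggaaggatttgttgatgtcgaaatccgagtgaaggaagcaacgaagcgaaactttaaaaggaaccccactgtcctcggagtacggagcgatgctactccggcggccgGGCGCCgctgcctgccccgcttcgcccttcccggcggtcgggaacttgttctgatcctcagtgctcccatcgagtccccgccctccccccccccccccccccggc
Bmpr1b, chr3:141982265-141982514, minus strand, the outermost of its starts: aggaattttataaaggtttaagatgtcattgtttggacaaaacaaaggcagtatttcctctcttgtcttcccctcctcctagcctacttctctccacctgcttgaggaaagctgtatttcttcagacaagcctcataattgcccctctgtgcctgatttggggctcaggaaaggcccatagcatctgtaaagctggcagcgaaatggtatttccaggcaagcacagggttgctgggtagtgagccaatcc
The Bmpr1a window was 78.8% G or C with 36 CpG dinucleotides, and it held the motif once, 198 bases before the start. The Bmpr2 window was 64% G or C with 22 CpG dinucleotides, and it held the motif once, 105 bases before the start. The Bmpr1b window was 46.8% G or C with 1 CpG dinucleotide and no GGCGCC. Its other starts had 52.8% and 56.4% G or C with 5 CpG dinucleotides each, and no GGCGCC. The Bmp4 window (63.2% G or C, 11 CpG dinucleotides) had none either. Over 32851 such windows of 27025 genes, 9.59% held the motif, the median G or C share was 52.4% and the median number of CpG dinucleotides was 6. A second motif, GGAGCC, searched on both strands, gave another picture: it was present once in the Bmp4 window and once in each of the other starts of Bmpr1b, and not in the windows printed here, against 26% of all windows. A match describes letters, and no binding was measured here.

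**Figure D2:**
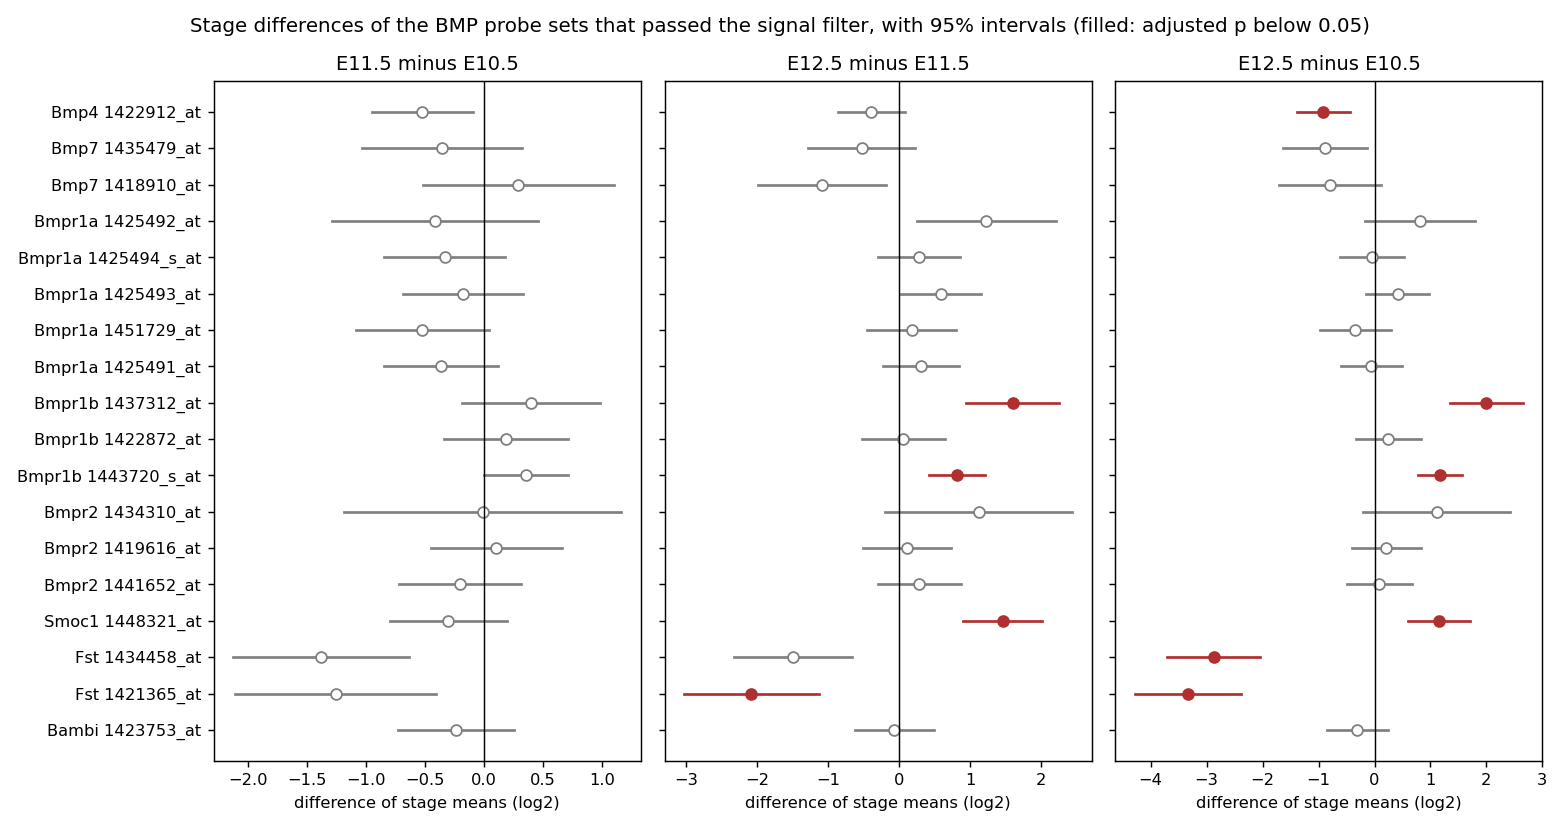
Log2 change with its 95% confidence interval (x axis) of each of the 18 kept member probe sets (y axis) in the 3 stage comparisons; filled symbols are called at an adjusted p below 0.05. No interval is filled for E11.5 against E10.5, and the filled points furthest from 0 are those of Fst at -2.87 and -3.33.

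Among the antagonists, Fst (follistatin, which binds activins and BMPs) was measured by 2 probe sets whose correlation over the 8 arrays was r = 0.97. At 1434458_at the arrays read 9.65, 9.59 and 8.66 at E10.5, 7.76, 7.76 and 8.25 at E11.5, and 6.90 and 5.95 at E12.5. At 1421365_at they read 9.69, 9.14 and 8.16, then 8.0, 7.73 and 7.5, then 6.20 and 5.13. At both, every array of a later stage lay below every array of an earlier one, with E10.5 array C the lowest of its stage and E12.5 array B the lowest of all. The means at 1434458_at were 9.30 ± 0.55 (SD, n = 3), 7.92 ± 0.29 (SD, n = 3) and 6.43 ± 0.67 (SD, n = 2).

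From E10.5 to E12.5 Fst fell by 2.87 (SE 0.38, 7.33-fold, limma adjusted p = 0.00166) at the first probe set and by 3.33 (SE 0.43, 10.1-fold, adjusted p = 0.00149) at the second. These calls held in all 18 alternatives, with adjusted p up to 0.0475 and 0.0377. The first step changed by -1.38 (SE 0.34, adjusted p = 0.143) and -1.25 (SE 0.39, adjusted p = 0.161). In the second step 1421365_at fell by 2.08 (SE 0.43, 4.23-fold, adjusted p = 0.0365), while 1434458_at changed by -1.49 (SE 0.38, adjusted p = 0.0814). The call of the second step had an adjusted p of 0.0714 without E10.5 array B, 0.153 without E11.5 A, 0.12 without E11.5 B, 0.667 without E12.5 B and 0.271 with the Gapdh covariate. It was 0.0896 with 64 added to the linear signal and 0.0566 with no trend.

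Fst fell in the same direction as the sum of fissure markers, though not as each of them. Within that list Ntn1, which encodes the secreted guidance protein netrin 1 of the fissure edges, read 8.83, 8.40 and 7.88 at E10.5, 6.97, 6.63 and 6.83 at E11.5, and 4.56 and 4.10 at E12.5. Ntn1 fell by 4.04 from E10.5 to E12.5 (limma adjusted p = 3.57e-05), and Zfp503, a transcriptional repressor, by 1.98 (adjusted p = 0.0121). The other 3 measured markers of the list did not pass the test, and they differed in direction: -1.0 for Vax1 (adjusted p = 0.0501), 0.98 for Vax2 (adjusted p = 0.198) and -0.51 for Zfp703 (adjusted p = 0.229). The summed signal of the list differed by 1.41 log2 units between its highest and its lowest array. The part of fissure tissue in the fall of Fst was not tested.

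Smoc1 encodes a secreted matricellular protein that modulates BMP signalling. Its probe set, 1448321_at, read 7.49, 7.30 and 7.32 at E10.5, 6.90, 7.33 and 6.98 at E11.5, and 8.63 and 8.42 at E12.5. The earlier stages overlapped, and both E12.5 arrays stood above all of them. The means were 7.37 ± 0.11 (SD, n = 3), 7.07 ± 0.23 (SD, n = 3) and 8.52 ± 0.14 (SD, n = 2). The signal rose by 1.45 from E11.5 to E12.5 (SE 0.25, 2.74-fold, limma adjusted p = 0.0138) and by 1.15 from E10.5 to E12.5 (SE 0.25, 2.22-fold, adjusted p = 0.0271). Without E12.5 array A the adjusted p was 0.12 and 0.201, and without E12.5 array B it was 0.188 and 0.233. The first was also 0.0617 without E11.5 array A and 0.18 with the covariate, and the second 0.0544 without E11.5 array B.

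Smoc1 and Bmpr1b rose between the same stages in which the summed signal of the 12 retinal neuron markers rose. On the 2 E12.5 arrays the neuron sum differed by 1.99 log2 units (12.2 on A and 14.1 on B), while Smoc1 differed by 0.20, with the higher value on A, and Bmpr1b at 1437312_at by 0.32, with the higher value on B. The eye field and neural retina sum was also higher at E12.5 (14.1 on A and 14.0 on B) than on every earlier array. It was 13.2 to 13.5 at E10.5 and 12.2 to 13.2 at E11.5, and like Smoc1 it was higher on A at E12.5. Its genes did not move as 1 group. Between E10.5 and E12.5 Sfrp2 differed by 1.74 (limma adjusted p = 0.023) and Pax6 by 1.60 (adjusted p = 0.105). The other measured genes of that list differed by -0.48 (Rax) to 0.09 (Six6) and were not called. The part of either cell type in the rise of either gene was not tested.

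Nog, the BMP antagonist noggin, read 3.44, 3.43 and 3.50 at E10.5, 3.22, 3.34 and 3.24 at E11.5, and 3.21 and 3.32 at E12.5 (1422300_at). Its mean lay at percentile 18.6 of all probe sets, below the filter, and it was not tested. Bambi (1423753_at) read 4.70, 5.35 and 5.22, then 4.71, 4.68 and 5.17, then 4.96 and 4.61. All stages overlapped, and its changes were -0.24, -0.07 and -0.31 (limma adjusted p = 0.583, 0.93 and 0.511).

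**Figure D3:**
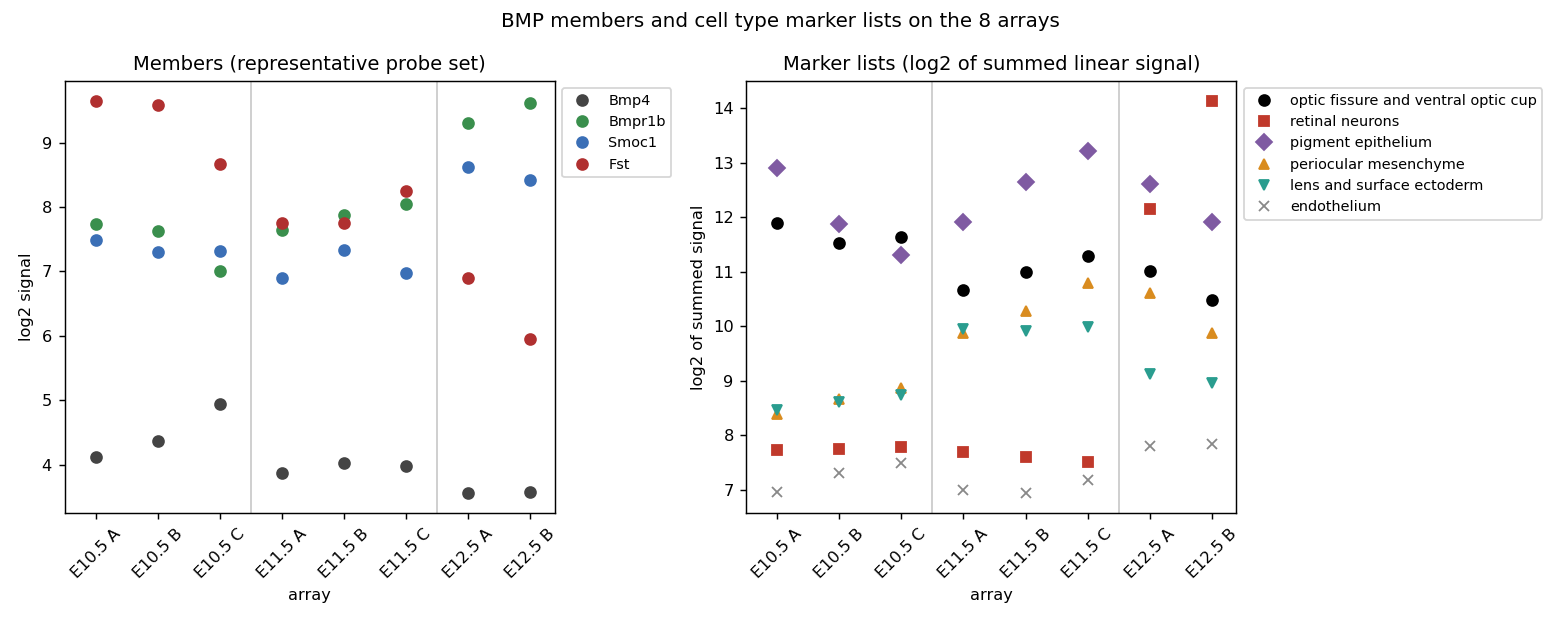
Log2 signal of Bmp4, Bmpr1b, Smoc1 and Fst at their probe sets of highest mean (left) and log2 of the summed linear signal of 6 marker lists (right) on each of the 8 arrays (x axis). Fst and the fissure list are lower at the later stages, and the retinal neuron list stands at 12.2 and 14.1 at E12.5 after 7.51 to 7.78 on the earlier arrays.

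The genes whose stage pattern was most like that of a member were taken by Pearson correlation over the 8 arrays among 13049 genes, for the 5 members whose stage means ranged over more than 1 log2 unit. For Fst they were Scd1 (r = 0.985), Nr2f2 (r = 0.973) and Ntn1 (r = 0.970). For Bmpr1b they were Trim23 (r = 0.995), Trpc1 (r = 0.99) and Dkk3 (r = 0.989), and for Smoc1 they were Gm9222 (r = 0.976), Slc25a27 (r = 0.966) and Insr (r = 0.962). Bmpr1a was nearest to Ncoa5 (r = 0.997), Vps36 (r = 0.996) and Ppp1r12a (r = 0.993), and Bmpr2 to Ebag9 (r = 0.997), Mllt10 (r = 0.995) and Cep44 (r = 0.993). These coefficients are the highest of 13049 on shared arrays, and they describe these arrays.

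Beyond the members, a list of 68 other BMP pathway genes was read, of which 68 had a probe set and 50 passed the filter, each by its probe set of highest mean. From E10.5 to E11.5, limma called 0 of 50, with 13 at an unadjusted p under 0.05, and in all 13050 genes 0.153% were called higher and 0.023% lower. From E11.5 to E12.5, 1 was called higher and 0 lower (1.79% and 0.238% of all genes). From E10.5 to E12.5, 3 were called higher and 1 lower (3.49% and 1.78% of all genes). The median changes were -0.33, 0.09 and -0.15, beside -0.22, 0.11 and -0.10 over all genes.

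Of 14 other ligands 7 passed the filter, and Bmp2, a close relative of Bmp4, was called. Its arrays read 4.92, 4.76 and 4.30 at E10.5, 5.23, 5.53 and 6.02 at E11.5, and 6.51 and 6.17 at E12.5, with no overlap between stages. Bmp2 rose by 1.68 from E10.5 to E12.5 (SE 0.28, 3.20-fold, limma adjusted p = 0.00732), and the adjusted p was 0.062 without E12.5 array A and 0.0527 without E12.5 array B. Bmp4 differed in the other direction over this interval (-0.91), at a probe set that passed the filter only through its E10.5 values. Of 9 other receptors and coreceptors 7 passed the filter and limma called 0, with changes from -0.96 to 0.76 between E10.5 and E12.5 and 2 genes at an unadjusted p under 0.05.

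Of 23 other antagonists and modulators 15 passed the filter. Sostdc1, a secreted BMP and Wnt antagonist, read 5.87, 7.5 and 5.46 at E10.5, 7.84, 8.35 and 8.84 at E11.5, and 8.41 and 8.29 at E12.5. It rose by 2.07 from E10.5 to E12.5 (SE 0.51, limma adjusted p = 0.0404), with E10.5 array B well above the other E10.5 arrays. A second Sostdc1 probe set differed by 0.92 (adjusted p = 0.143). The adjusted p of the first passed the threshold in 8 of 18 alternatives. Leaving out E10.5 A, E10.5 C, E11.5 B, E12.5 A or E12.5 B gave 0.0967, 0.0807, 0.0681, 0.183 and 0.29. Htra1, a secreted serine protease that binds TGF-beta family members, fell by 1.14 (SE 0.26, adjusted p = 0.0317) and at its second probe set by 0.94 (adjusted p = 0.0284), and for the first leaving out E10.5 A, E10.5 B, E11.5 B, E12.5 A or E12.5 B gave an adjusted p of 0.0603, 0.0555, 0.0655, 0.218 and 0.242. It was 0.12 for Sostdc1 and 0.0752 for Htra1 with the Gapdh covariate.

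Inside the cell, 10 of 11 genes for SMADs and their ubiquitin ligases passed the filter and limma called 0, with median changes of -0.44, 0.73 and 0.08 and 3, 5 and 4 genes at an unadjusted p under 0.05. The inhibitory gene Smad6, itself induced by BMP signals, read 4.53, 4.62 and 5.14, then 3.93, 4.49 and 4.26, then 4.06 and 3.62, a difference of -0.93 between E12.5 and E10.5 (limma adjusted p = 0.0512). Smad7, the other inhibitory SMAD gene, differed in the opposite direction, with 7.09, 7.18 and 6.66, then 7.01, 6.90 and 6.79, then 7.4 and 7.93, a difference of 0.69 (adjusted p = 0.165). Of 13 transcriptional targets, which count Smad6 and Smad7 again, all passed the filter and 1 was called. That gene, Hey1, a transcriptional repressor that BMP and Notch signals induce, read 5.80, 6.28 and 5.84 at E10.5, 6.39, 6.29 and 7.01 at E11.5, and 7.89 and 9.67 at E12.5. Hey1 rose by 2.22 from E11.5 to E12.5 (SE 0.44, adjusted p = 0.0287) and by 2.81 from E10.5 to E12.5 (SE 0.44, adjusted p = 0.00471). Its E12.5 arrays differed by 1.78, in the same order as the neuron sum.

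The second step of Hey1 had an adjusted p of 0.0562 without E10.5 array B, 0.128 without E11.5 A, 0.115 without E11.5 B, 0.462 without E12.5 B and 0.372 with the Gapdh covariate. It was 0.0635 under quantile normalization, 0.0506 with no trend and 0.0608 with E10.5 C and E11.5 A both left out, and the whole rise of Hey1 had 0.0561 without E12.5 B. The Id genes, repressors of differentiation that BMP signals commonly induce, were not called. Their changes between E10.5 and E12.5 were 0.03 for Id1, -0.95 for Id2, -0.72 for Id3 and 0.14 for Id4. All 3 E10.5 arrays of Id2 (10.34, 10.76 and 10.01) lay above the later ones (8.97 to 9.84), and Id1 overlapped between E10.5 and E12.5.

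**Figure D4:**
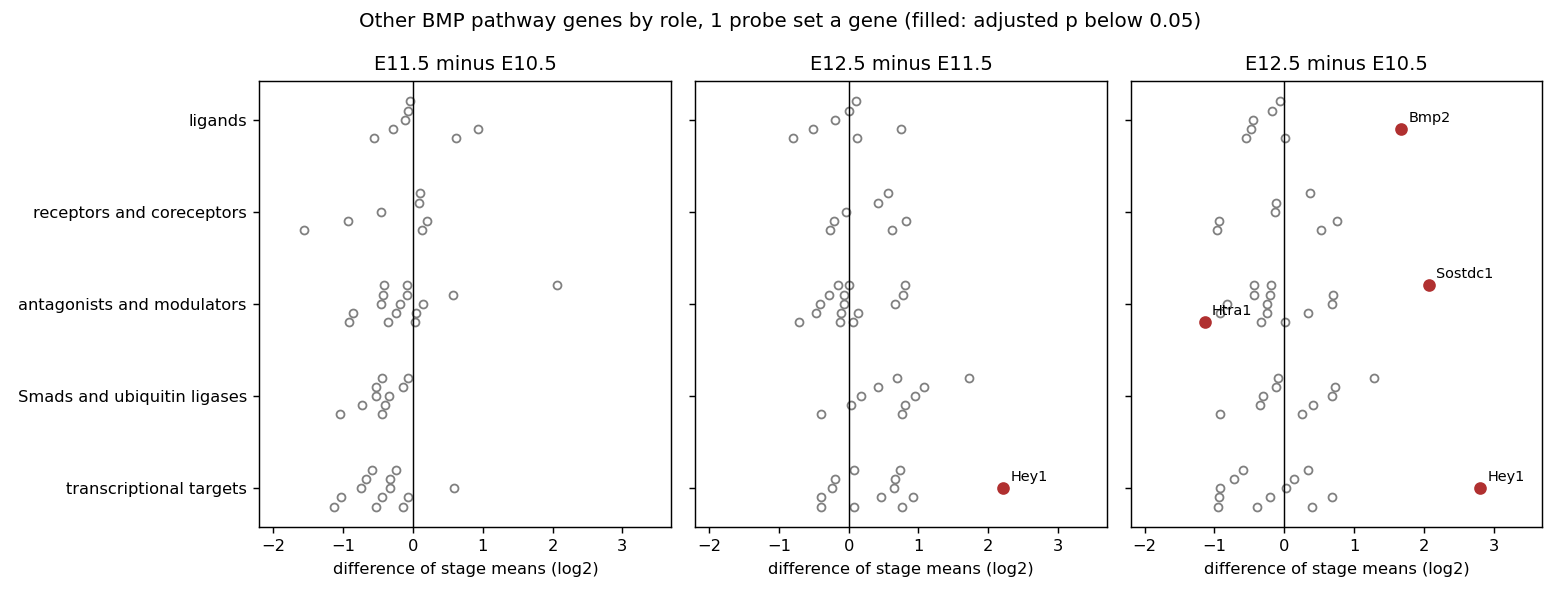
Log2 change (x axis) of each of the 50 measured pathway genes, grouped by role (y axis), in the 3 stage comparisons. Smad6 and Smad7 stand in 2 groups, and Ski, Skil and Zeb2 in that of the Smads and ubiquitin ligases. Filled points are called at an adjusted p below 0.05. Hey1 lies furthest to the right at 2.81 in E12.5 against E10.5, and Htra1 is the filled point below 0 at -1.14.

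**Figure D5:**
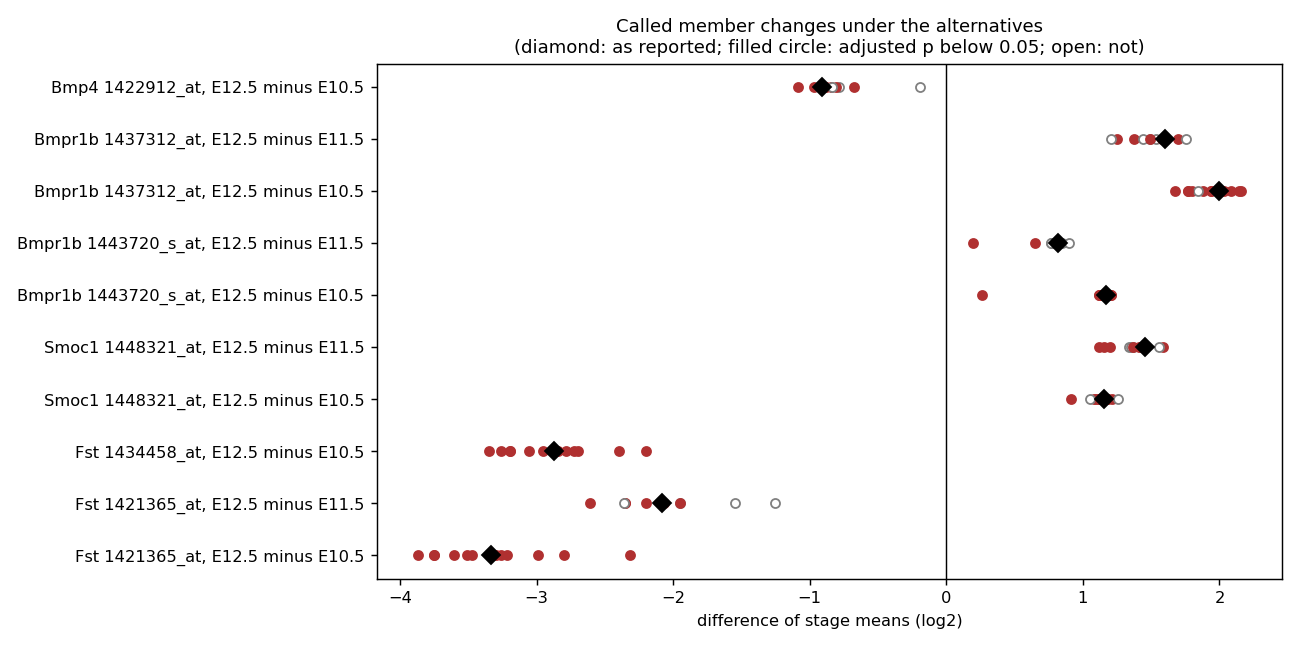
Log2 change (x axis) of the 10 called member changes (y axis) in the main fit and in each alternative; filled points keep an adjusted p below 0.05. No point changes sign, and the changes with no open point are the Fst falls from E10.5 to E12.5 and the difference of Bmpr1b 1443720_s_at over the same interval, which was not tested without either E12.5 array; the smallest changes of Bmp4 and of 1443720_s_at are those with 64 added to the linear signal.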

How the data were processed

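Optic fissure tissue from 8 pools of 3 embryos was measured on 8 arrays, after linear amplification of RNA by repeated in vitro transcription and biotin labelling, per the labels' protocols. The deposited values, made by the authors, are on the log2 scale and cover 45101 probe sets on each array. The submitters' processing notes list GCOS 1.4 without saying what it did. Summarization, background removal and normalization are not given in the sources used here. No detection calls were used. Amplification favours 3 prime ends, so a probe set far from them can read low.

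The 64 control probe sets and the lowest 40% of the others by mean signal (below 3.94) were left out, which kept 27022. Names came from the platform annotation of 2016, and 34754 of the 34958 probe sets with 1 gene matched RefSeq gene identifiers. A probe set with several genes was not named. The log2 values were fitted in limma 3.58.1 (R 4.3.3) with stage as the only term over all 8 arrays (5 residual degrees of freedom), empirical Bayes moderation with a trend, two-sided tests and Benjamini-Hochberg adjustment over the kept probe sets (threshold 0.05). The fit was tested on simulated data. The highest correlation between 2 arrays was 0.9887, and no arrays were merged.

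Every member is named with all its probe sets. Other pathway genes are named where called, and the inhibitory Smads and the Id genes are given as values. A gene's probe set of highest mean represents it. The members and the gene lists were chosen with earlier results of these data known. Alternatives covered normalization, the filter, a pseudocount of 64, the variance trend, a replicate block, array weights, the Gapdh covariate, the mean of a gene's probe sets and each of the 8 arrays left out in turn. Where 1 array of E12.5 remained, it was assumed to vary like the other stages. Leaving out E10.5 array C and E11.5 array A together was chosen after seeing the data.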

Additional observations from a re-analysis of the deposited data

How the results depend on the processing

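Between 18 and 19 alternatives were run per count. The 10 called member changes were refitted 172 times, kept their sign each time and stayed past the threshold 127 times. The 10, and the member calls counted below, include the 2 probe sets that passed the filter only through 1 stage, whose tests support no count. The 44 others were refitted 776 times, stayed on their side 759 times and changed sign 41 times. Member calls from E11.5 to E12.5, 4 in all, became 2 with no trend, 1 with the replicate block, 13 with array weights and 0 with the Gapdh covariate, and 0 to 5 with 1 array left out. Those from E10.5 to E12.5, 6 in all, stayed between 4 and 6 except with 1 array left out (2 to 6), and those of the F test, 5 in all, became 3 with the block, 13 with weights and 0 to 6 with 1 array left out. Array weights gave 4 calls from E10.5 to E11.5 and 8 for E11.5 against the other stages, both 0 otherwise. For pathway genes, E10.5 to E11.5 (0) became 14 with weights, 1 with the covariate and 0 to 1 with 1 array left out. E11.5 to E12.5 (1) became 0 under quantile normalization, no trend or the covariate, 28 with weights, 3 with the mean of a gene's probe sets and 0 to 3 with 1 array left out. E10.5 to E12.5 (4) became 2 with the block or the covariate, 10 with weights and 0 to 4 with 1 array left out. The cause was not tested. The weights rest on 1 array, E11.5 B (218 against at most 1.20 elsewhere), and their estimation stopped before it converged. Over all probe sets, 34, 492 and 1255 were called in the 3 comparisons, and 5, 280 and 531 with the replicate block, 152, 73 and 790 with the covariate, and 14, 78 and 169 without E12.5 array B. With the block the adjusted p rose above the threshold for Bmp4 (0.0982) and Smoc1 (0.107) from E10.5 to E12.5, for Smoc1 (0.0742) and Bmpr1b (0.0937 and 0.0912) from E11.5 to E12.5, and for Sostdc1 (0.106) and Htra1 (0.0545). The labels do not say that the replicate letters pair the arrays. Deviations of same-lettered E10.5 and E11.5 arrays correlated at -0.39 (A), -0.11 (B) and -0.38 (C), and none correlated best with its own letter. Same-lettered arrays correlated at 0.13 (A) and 0.07 (B) between E10.5 and E12.5, and at -0.14 (A) and 0.02 (B) between E11.5 and E12.5. These values compare whole arrays, so they do not decide whether arrays of a letter were handled together. With 2 arrays at E12.5, probe sets near 3.94 log2 and changes under about 1 log2 unit are poorly resolved.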
